A study of Mus musculus with 12 samples.

Results

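The neutrophil granule genes described here are 34 genes out of the 24028 in the deposited tables. They were taken by symbol from a given list and ordered by the stage of neutrophil development at which their products are made. All 34 had a row in both tables. They fell into 10 primary granule and promyelocyte genes, 2 lysozyme genes, 10 secondary granule genes, 3 tertiary granule genes, 2 cytosolic calgranulins and 7 late neutrophil genes. The stage of a gene is textbook knowledge of normal marrow and used no value of these libraries. The choice of the genes themselves was made with earlier results of these data known. RNA was sequenced from C57BL/6 mouse bone marrow in 12 libraries, 3 in each of 4 groups. The iMLL-ENL mice carry a doxycycline-inducible knock-in of the MLL-ENL fusion, a driver of acute leukemia, and received doxycycline until leukemia developed. Their libraries came from whole marrow (iMLL-ENL total) or from leukemic cells sorted for high or low surface B220 (B220High and B220Low). B220 is a form of Ptprc best known from B cells. The wtLSK libraries came from wild-type control mice. These cells were lineage-depleted and then sorted for c-Kit and Sca-1, which enriches stem and early progenitor cells. The labels give 3 animals per genotype but do not tie a library to an animal. Each p-value reflects only how far libraries of a group spread. In the fits that pair libraries by replicate number, it reflects how far the differences between same-numbered libraries spread.

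Neutrophils build their granules in sequence as they mature in the marrow. Promyelocytes fill the primary (azurophil) granules with myeloperoxidase and serine proteases, myelocytes then make the secondary (specific) granules with lactoferrin and antimicrobial proteins, and later cells add tertiary granules rich in matrix proteases. Transcription of each set is switched on and off again with its stage, and C/EBP factors, PU.1 and Gfi1 are well-known regulators of these genes.

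The 150 bases before a RefSeq start of each gene were available for 30 of the 34 genes on GRCm38.p6. That start was not always the outer end of the gene. The windows of Bpi and Adam8 lay wholly inside the annotated gene, and those of Ctsc, Fcnb, Cd177, Itgb2l and Padi4 ran partly into it. Each was searched on both strands for the letters TTNNGCAA, which read TTGCNNAA on the other strand, a C/EBP-type motif, and for the letters GAGGAA, which read TTCCTC on the other strand, a PU.1-type motif. The C/EBP-type letters were found in 5 of the 30 windows, those of Fcnb, Ltf, Ngp, Mmp8 and Anxa1, and in 5.48% of 27025 gene windows. The PU.1-type letters were found in 10 of the 30, those of Elane, Prtn3, Ctsc, Bpi, Lcn2, Olfm4, Pglyrp1, Mmp25, S100a8 and Itgb2l, and in 14.4% of all windows. No window of these genes held both motifs, and the TATAAA box was in 4 of 30, against 8.08% of all windows. The motifs did not divide the stages: PU.1-type letters were in 4 of 9 primary and 3 of 9 secondary windows. C/EBP-type letters were in 1 of 9 primary and 3 of 9 secondary windows. A match is only a match of letters. The following windows are shown because they come from neighbouring primary granule protease genes (Elane at chr10:79886162-79886311 and Prtn3 at chr10:79879517-79879666) and from the lactoferrin gene and its neighbour in stage (Ltf at chr9:111019142-111019291 and Ngp at chr9:110419658-110419807), the stages that are contrasted below. All 4 lie on the plus strand and read toward the gene, and capitals mark the matched letters, GAGGAA in Elane and Prtn3 and the C/EBP-type letters in Ltf and Ngp, where Ngp has them at 2 places.
Elane: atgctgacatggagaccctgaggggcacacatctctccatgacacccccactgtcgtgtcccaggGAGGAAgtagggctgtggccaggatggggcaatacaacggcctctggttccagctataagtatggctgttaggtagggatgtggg
Prtn3: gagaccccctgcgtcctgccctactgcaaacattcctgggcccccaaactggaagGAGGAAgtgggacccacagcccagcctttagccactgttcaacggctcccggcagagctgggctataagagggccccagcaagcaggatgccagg
Ltf: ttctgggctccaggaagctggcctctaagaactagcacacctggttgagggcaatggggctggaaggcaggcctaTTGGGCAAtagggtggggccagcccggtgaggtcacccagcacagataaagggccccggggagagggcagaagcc
Ngp: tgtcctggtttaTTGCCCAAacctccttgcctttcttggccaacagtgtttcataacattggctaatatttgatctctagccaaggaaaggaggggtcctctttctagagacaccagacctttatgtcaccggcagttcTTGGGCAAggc

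Library totals ran from 10921521 to 22706882 counts, and levels are given as CPM, the count divided by the library total and scaled to 1e6. The 8 stem and LSK markers summed to 215, 153 and 186 CPM in iMLL-ENL total libraries 1, 2 and 3, against 2974, 2859 and 3479 CPM in wtLSK libraries. All 8 fell in iMLL-ENL total at an adjusted p under 0.05 by edgeR, where 15.1% of all genes tested fell. By these genes the sort label held, though Kit and Ly6a encode the antigens of the sort itself, c-Kit and Sca-1. The wtLSK libraries differed among themselves. Replicate 2 had the highest level of the 3 for 31 of the 34 granule genes, and it also had the highest sums of monocyte markers (157, 557 and 178 CPM in replicates 1, 2 and 3) and of B lineage markers (55.9, 247 and 46.0 CPM). The count of granule genes called against wtLSK is therefore given with and without that library. The B220 epitope belongs to some forms of Ptprc and cannot be read from counts per gene. B lineage markers in the sorted libraries summed over 9 genes to 8.79, 82.8 and 13.9 CPM in B220High and 7.20, 14.9 and 9.14 CPM in B220Low. B220High library 2 stood out, above the iMLL-ENL total libraries as well (19.9, 41.3 and 23.8 CPM).

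**Figure D1:**
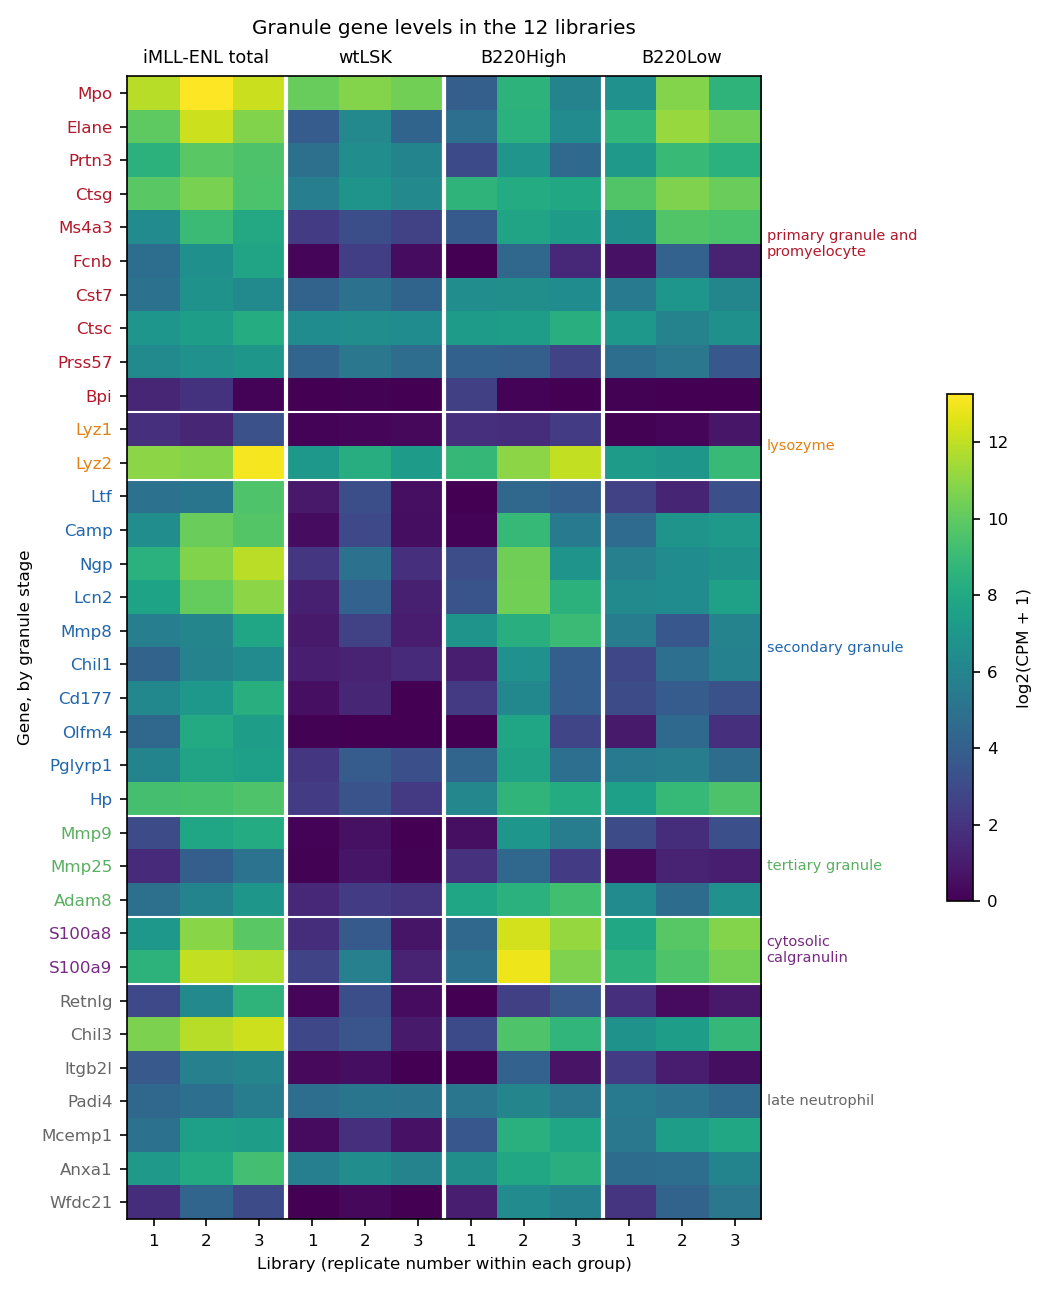
Levels of the 34 granule genes (rows, ordered by stage) in the 12 libraries (columns, by group and replicate), as log2 of CPM plus 1 on a scale from dark (low) to bright (high). The iMLL-ENL total columns are brighter than the wtLSK columns in nearly all rows, Padi4 being the clearest exception, and B220High replicate 1 is the darkest sorted library in most secondary and late rows.

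The first comparison asked how the whole leukemic marrow differs from normal LSK cells. Granule genes of every stage were higher in iMLL-ENL total. Of the 33 granule genes tested, 31 rose, none fell and 2 did not pass the test, where 15.5% of all 13811 genes tested rose (edgeR's quasi-likelihood test, Benjamini-Hochberg adjusted p under 0.05). All 31 had every leukemic library above every wtLSK library, as had 19.0% of all genes tested. The median log2 fold change was 6.21 over the granule genes and 0.05 over all genes tested. Without wtLSK replicate 2, 31 of 34 tested rose, with Retnlg called (adjusted p = 0.0211 by edgeR) and Ctsc not (0.0623), where 10.4% of all genes tested rose. By stage the median log2 fold change was 3.68 for the primary granule genes, 4.74 for the lysozymes, 7.31 for the secondary granule genes, 6.21 for the tertiary ones, 7.53 for the calgranulins and 7.01 for the late genes. In bulk RNA, fewer cells of a type and less RNA per cell cannot be told apart. Whole marrow and a lineage-depleted sort also differ in which cells they can hold, so genotype and sort cannot be told apart here. Monocyte and macrophage markers moved with the granule genes: 9 of 10 rose, and their sum was 3091, 3242 and 7081 CPM in the iMLL-ENL total libraries and 157, 557 and 178 CPM in wtLSK. Their part in the granule gene results was not tested.

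**Figure D2:**
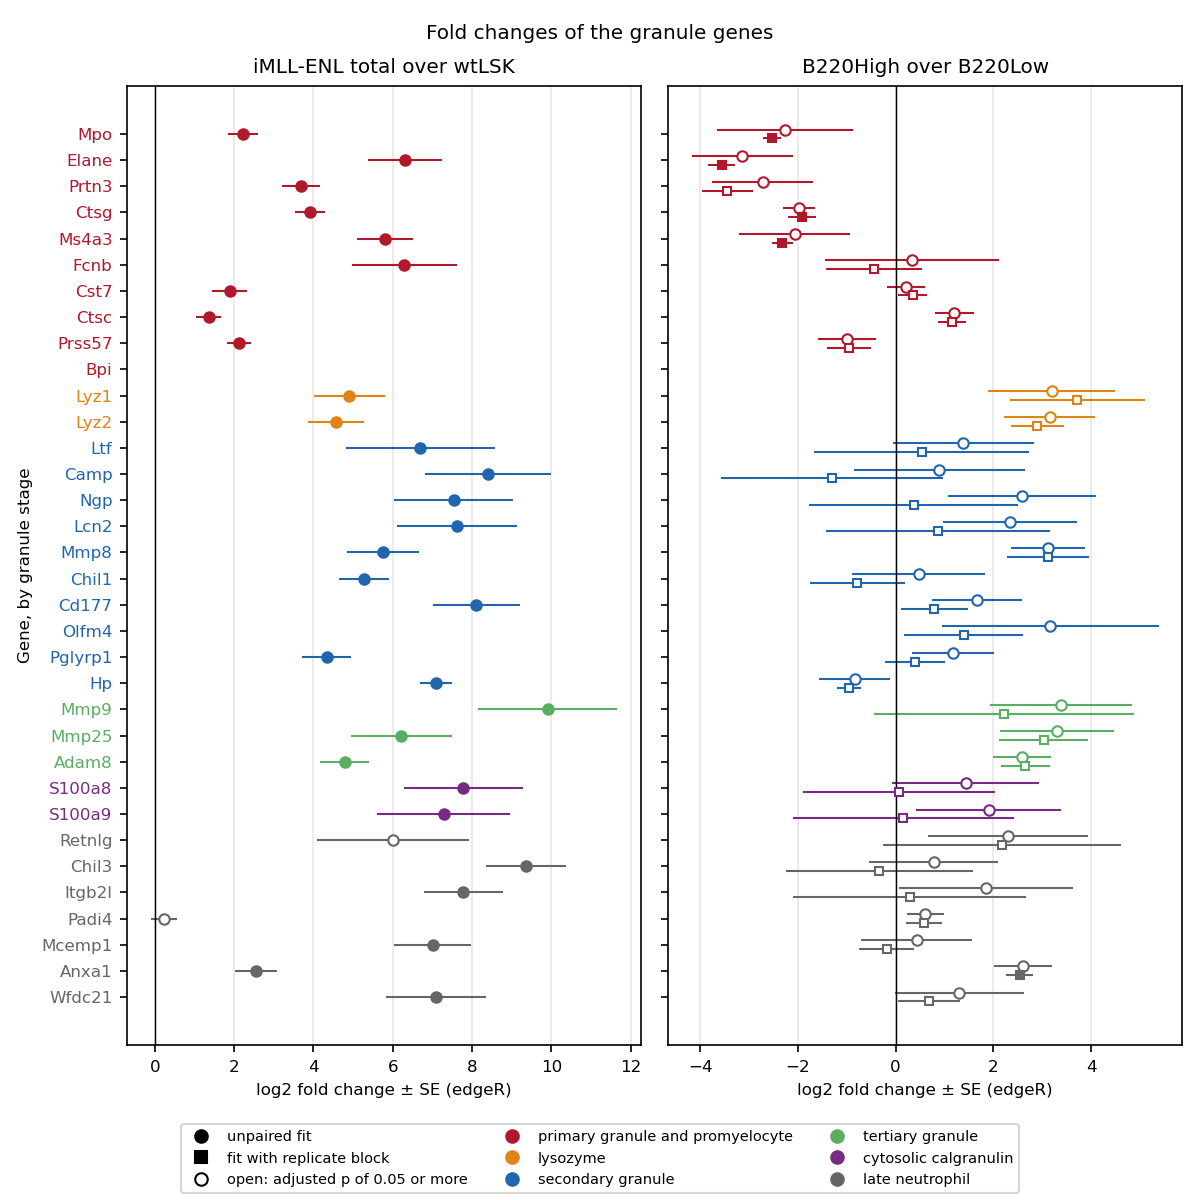
Log2 fold change ± SE of each granule gene from edgeR, iMLL-ENL total over wtLSK (left) and B220High over B220Low (right), coloured by stage. Circles are the unpaired fit, squares the fit with the replicate block, and open symbols an adjusted p of 0.05 or more. Bpi was not tested and Olfm4 is left out of the left panel, which lies above 0 for every gene drawn, while in the right panel Elane, Prtn3, Mpo, Ms4a3 and Ctsg lie below 0 and Anxa1, Adam8 and Mmp8 above it.

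Among the primary granule genes, all 9 tested rose. Mpo (chr11:87793784-87804412 on GRCm38.p6) encodes myeloperoxidase, the oxidant-forming enzyme of the azurophil granule. It had 3680.3, 9811 and 4620.4 CPM in the iMLL-ENL total libraries, against 1158, 1793 and 1364 CPM in wtLSK libraries. The groups did not overlap, and the log2 fold change was 2.23 (SE 0.38, adjusted p = 0.00305) by edgeR. Mpo was already the most abundant granule gene of the wtLSK libraries, where it made up 62.7% to 71.3% of the counts of all 34 genes. Elane encodes neutrophil elastase and had 993, 4787 and 1698 CPM in iMLL-ENL total, against 13.7, 75.9 and 18.3 CPM in wtLSK. Leukemic library 2 was highest and the lowest leukemic library stood far above the highest wtLSK library, with a log2 fold change of 6.30 (SE 0.93, adjusted p = 0.00199) by edgeR. The related proteases moved in the same direction. Elane (chr10:79886312-79888216), Prtn3 (chr10:79879667-79883174) and Prss57 (chr10:79781474-79794684) lie close together. Prtn3, proteinase 3, had 362, 929 and 743 CPM in the iMLL-ENL total libraries and 29.3, 88.5 and 62.2 CPM in wtLSK, a log2 fold change of 3.68 (SE 0.48, adjusted p = 0.00102) by edgeR. Ctsg, cathepsin G, had 946, 1553 and 729 CPM in the iMLL-ENL total libraries and 49.7, 117 and 73.8 CPM in wtLSK, a log2 fold change of 3.91 (SE 0.39, adjusted p = 0.000251) by edgeR. Neither gene had overlapping groups.

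The other primary stage genes covered a wide span of change. Ms4a3, a membrane protein that marks granulocyte-monocyte progenitors, had 84.0, 516 and 258 CPM in the iMLL-ENL total libraries and 4.03, 8.23 and 5.05 CPM in wtLSK, with a log2 fold change of 5.80 (SE 0.70, adjusted p = 0.000741) by edgeR. Fcnb, ficolin B, a lectin of the complement pathway, had 26.4, 98.7 and 215 CPM in the iMLL-ENL total libraries and 0.161, 4.55 and 0.357 CPM in wtLSK. Its log2 fold change was 6.29 (SE 1.33, adjusted p = 0.0113) by edgeR, and without iMLL-ENL total replicate 2 its adjusted p was 0.0528 and with no filter on low counts 0.065. Prss57, a serine protease, overlaps Fstl3 and Palm in the annotation, and since the kit does not keep strand its counts are uncertain. Prss57 showed 76.5, 104 and 131 CPM in the iMLL-ENL total libraries and 18.7, 37.0 and 25.3 CPM in wtLSK (log2 fold change 2.11, SE 0.30, adjusted p = 0.00142 by edgeR). Cst7, the cathepsin inhibitor cystatin F, and Ctsc, the dipeptidyl peptidase that activates the granule proteases, changed least. Ctsc had 124, 169.8 and 300.0 CPM in iMLL-ENL total, against 85.2, 89.3 and 86.1 CPM in wtLSK. Cst7 had 30.6, 107 and 79.2 CPM in iMLL-ENL total, against 17.5, 30.3 and 18.3 CPM in wtLSK. The log2 fold change of Ctsc was 1.35 (SE 0.32, adjusted p = 0.0141) by edgeR and that of Cst7 was 1.89 (SE 0.45, adjusted p = 0.0135). These calls were close to the threshold. Leaving out any 1 wtLSK library put the adjusted p of Ctsc by edgeR at 0.0568 to 0.0653, and leaving out wtLSK replicate 1 or 3 put that of Cst7 at 0.0586 to 0.0728. Bpi, which encodes a protein that kills Gram-negative bacteria, did not pass the count filter. It had 89 counts over the 3 iMLL-ENL total libraries and 1 over the wtLSK libraries, with 36, 51 and 2 counts in iMLL-ENL total libraries 1, 2 and 3, and a ratio of CPM of 80.7 with a 95% counting interval of 14.1 to 3221.

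Lysozyme, which cuts bacterial cell walls, comes in the mouse from the closely related neighbouring genes Lyz1 and Lyz2, between which reads may be split. Lyz2 carried nearly all lysozyme counts, and the highest share of Lyz1 was 0.542% in B220High library 1 (exact 95% binomial interval 0.358% to 0.788%). Lyz2 had 2017, 1868 and 8577 CPM in the iMLL-ENL total libraries and 134, 302 and 162 CPM in wtLSK. The groups did not overlap, with a log2 fold change of 4.57 (SE 0.71, adjusted p = 0.0024) by edgeR. Lyz1 had 2.50, 1.67 and 8.90 CPM in the iMLL-ENL total libraries and 0.107, 0.165 and 0.204 CPM in wtLSK, a log2 fold change of 4.90 (SE 0.89, adjusted p = 0.00418) by edgeR. Within the leukemic libraries Lyz2 was highest in replicate 3, as were 20 of the 34 granule genes and the monocyte marker sum, and the part of monocytes in it was not tested.

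All 10 secondary granule genes rose, against a summed level of 15.8, 94.4 and 20.1 CPM in wtLSK. Ltf encodes the iron-binding protein lactoferrin and had 29.8, 35.0 and 777 CPM in iMLL-ENL total, against 0.859, 8.23 and 0.459 CPM in wtLSK. Leukemic library 3 stood far above the other leukemic libraries, which lay much closer to wtLSK replicate 2. The log2 fold change of Ltf was 6.70 (SE 1.88, adjusted p = 0.036) by edgeR, the weakest call among the secondary genes. It was lost without wtLSK replicate 1 (adjusted p = 0.0949), wtLSK replicate 3 (0.133) or iMLL-ENL total replicate 2 (0.0618). The log2 fold change itself was 3.47 without iMLL-ENL total replicate 3 and 8.83 without wtLSK replicate 2, the ends of its range with 1 library left out. Camp, the precursor of the antimicrobial peptide CRAMP, had 91.1, 1189 and 830.4 CPM in the iMLL-ENL total libraries and 0.376, 6.47 and 0.408 CPM in wtLSK (log2 fold change 8.39, SE 1.59, adjusted p = 0.00836 by edgeR). Ngp, neutrophilic granule protein, had 349, 1749 and 3797 CPM in the iMLL-ENL total libraries and 3.22, 31.4 and 2.55 CPM in wtLSK (log2 fold change 7.53, SE 1.50, adjusted p = 0.01 by edgeR). For both genes leukemic library 1 was lowest and wtLSK replicate 2 was the highest of its group, without overlap between the groups.

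Lcn2, the siderophore-binding lipocalin, had 209, 1136 and 1958 CPM in the iMLL-ENL total libraries and 1.24, 17.1 and 1.28 CPM in wtLSK (log2 fold change 7.62, SE 1.51, adjusted p = 0.0099 by edgeR). Hp, haptoglobin, which binds free hemoglobin, varied least on a log scale among the leukemic libraries of all genes of the stage. It had 642, 679 and 767 CPM in iMLL-ENL total, against 4.19, 9.33 and 3.72 CPM in wtLSK, and the smallest adjusted p of all 34 genes, with a log2 fold change of 7.09 (SE 0.41, adjusted p = 2e-05) by edgeR. Olfm4, olfactomedin 4, marks a subset of neutrophils and had 9309 counts over the iMLL-ENL total libraries and 1 over the wtLSK libraries. The ratio of CPM was 8437 with a 95% counting interval of 1514 to 333270. Cd177, a surface protein carried on secondary granules, had 73.3, 133 and 319.5 CPM in the iMLL-ENL total libraries and 0.483, 1.70 and 0 CPM in wtLSK (log2 fold change 8.11, SE 1.10, adjusted p = 0.00137 by edgeR). The collagenase gene Mmp8, the chitinase-like gene Chil1 and the peptidoglycan-recognition gene Pglyrp1 had the smallest fold changes of the stage. Mmp8 had 50.3, 64.7 and 218 CPM in the iMLL-ENL total libraries and 0.913, 5.16 and 1.07 CPM in wtLSK, and Pglyrp1 had 61.9, 213 and 177 CPM in the iMLL-ENL total libraries and 3.33, 13.7 and 8.52 CPM in wtLSK. Their log2 fold changes were 5.75 (SE 0.91, adjusted p = 0.00268) and 4.33 (SE 0.62, adjusted p = 0.00164) by edgeR, and that of Chil1, with 17.6, 60.4 and 84.1 CPM in iMLL-ENL total and 1.18, 1.37 and 2.14 CPM in wtLSK, was 5.27 (SE 0.63, adjusted p = 0.000595). None of these genes had overlapping groups. With no filter on low counts the adjusted p by edgeR was 0.0501 for Camp, 0.0566 for Lcn2, 0.0570 for Ngp and 0.136 for Ltf.

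The tertiary granule genes all rose. Mmp9, the gene of gelatinase B, which gives the gelatinase granule its name, had 7.09, 218 and 289 CPM in the iMLL-ENL total libraries and 0.107, 0.494 and 0 CPM in wtLSK, where 0 counts in replicate 3 allow a level of up to 0.153 CPM. Leukemic library 1 held far less than the other leukemic libraries but more than any wtLSK library, and the log2 fold change was 9.91 (SE 1.76, adjusted p = 0.00657) by edgeR. Adam8, a membrane metalloprotease, had 28.6, 62.9 and 129 CPM in the iMLL-ENL total libraries and 1.93, 4.11 and 3.06 CPM in wtLSK (log2 fold change 4.78, SE 0.61, adjusted p = 0.000832 by edgeR). Mmp25, the membrane-anchored leukolysin, overlaps Bicdl2 and is uncertain for that reason, as is Adam8 for its overlap with Mir7062. Mmp25 had 1.99, 15.3 and 32.5 CPM in the iMLL-ENL total libraries and 0.0537, 0.658 and 0.051 CPM in wtLSK, and its log2 fold change was 6.21 (SE 1.28, adjusted p = 0.00799) by edgeR.

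The calgranulins S100a8 (chr3:90669071-90670034) and S100a9 (chr3:90692630-90695721), which pair to form the calcium-binding calprotectin of the neutrophil cytosol, both rose. S100a8 had 135, 1909.9 and 937 CPM in the iMLL-ENL total libraries and 2.36, 12.5 and 0.663 CPM in wtLSK (log2 fold change 7.78, SE 1.50, adjusted p = 0.00905 by edgeR). S100a9 had 385, 4243 and 3403 CPM in the iMLL-ENL total libraries and 5.48, 53.0 and 1.48 CPM in wtLSK (log2 fold change 7.28, SE 1.68, adjusted p = 0.0179 by edgeR). Both were highest in leukemic library 2 and in wtLSK replicate 2, and the groups did not overlap. Without iMLL-ENL total replicate 2 the adjusted p of S100a9 by edgeR was 0.0693, and with no filter on low counts it was 0.0856, against 0.0524 for S100a8.

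Of the 7 late neutrophil genes, 5 rose. Chil3 encodes the chitinase-like protein Ym1 of immature marrow neutrophils and some macrophages. It held most counts of the stage in every iMLL-ENL total library. There it had 1596, 3718 and 4901 CPM, against 6.45, 10.2 and 0.918 CPM in wtLSK. Its log2 fold change was 9.36 (SE 1.01, adjusted p = 0.000486) by edgeR, though reads may be shared with its close paralogs. Anxa1, annexin A1, an anti-inflammatory protein that binds phospholipids, had 139, 277 and 636 CPM in the iMLL-ENL total libraries and 52.7, 90.1 and 60.9 CPM in wtLSK (log2 fold change 2.55, SE 0.53, adjusted p = 0.00849 by edgeR). It held the most counts of this stage in wtLSK. Mcemp1, a transmembrane protein of mast cells and other myeloid cells, Itgb2l, a beta integrin-like gene that overlaps Igsf5, and Wfdc21, a small whey acidic protein family member, rose with log2 fold changes of 7.01 (SE 0.97, adjusted p = 0.0015), 7.78 (SE 0.99, adjusted p = 0.000893) and 7.09 (SE 1.26, adjusted p = 0.00372) by edgeR. Mcemp1 had 31.5, 177 and 171 CPM in the iMLL-ENL total libraries and 0.322, 2.47 and 0.561 CPM in wtLSK. Itgb2l had 12.05, 53.6 and 64.0 CPM in the iMLL-ENL total libraries and 0.269, 0.384 and 0 CPM in wtLSK. Wfdc21 had 2.27, 18.7 and 7.27 CPM in the iMLL-ENL total libraries and 0, 0.219 and 0 CPM in wtLSK, and all 3 had groups that did not overlap.

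The last 2 late genes did not pass. Retnlg, a resistin-like protein of mature neutrophils, had 6.49, 73.5 and 393 CPM in the iMLL-ENL total libraries and 0.161, 8.12 and 0.357 CPM in wtLSK. Leukemic library 1 lay below wtLSK replicate 2, and the log2 fold change was 6.01 (SE 1.92, adjusted p = 0.0555) by edgeR. Without wtLSK replicate 2 it was 9.31 with an adjusted p of 0.0211 by edgeR, and without iMLL-ENL total replicate 1 the adjusted p was 0.0104. Without iMLL-ENL total replicate 3 the log2 fold change was 3.93 with an adjusted p of 0.125, and over all fits with 1 library left out the adjusted p by edgeR reached 0.18. Padi4, the enzyme that citrullinates histones in neutrophil extracellular traps, had 21.4, 28.1 and 47.9 CPM in the iMLL-ENL total libraries and 26.4, 34.8 and 32.9 CPM in wtLSK. These groups overlapped, the log2 fold change was 0.22 (SE 0.33, adjusted p = 0.655) by edgeR, and it was -0.26 without iMLL-ENL total replicate 3.

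The leukemic libraries were not alike. Together the 34 genes took 1.23%, 3.63% and 3.75% of the counts of iMLL-ENL total libraries 1, 2 and 3, against 0.162%, 0.286% and 0.194% in wtLSK, with at least 19954 counts behind each share in any library of the study. Replicate 1 was the lowest of the 3 leukemic libraries for 30 of the 34 genes. Replicate 2 was highest for 7 of 10 primary granule genes and replicate 3 for 7 of 10 secondary granule genes. The summed secondary granule level was 0.244, 0.306 and 1.04 times the primary one in iMLL-ENL total libraries 1, 2 and 3, against 0.0115, 0.0421 and 0.0122 times in wtLSK. Every leukemic library therefore held more secondary RNA per primary RNA than any wtLSK library. Within the leukemic group library 3 had the highest ratio.

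**Figure D3:**
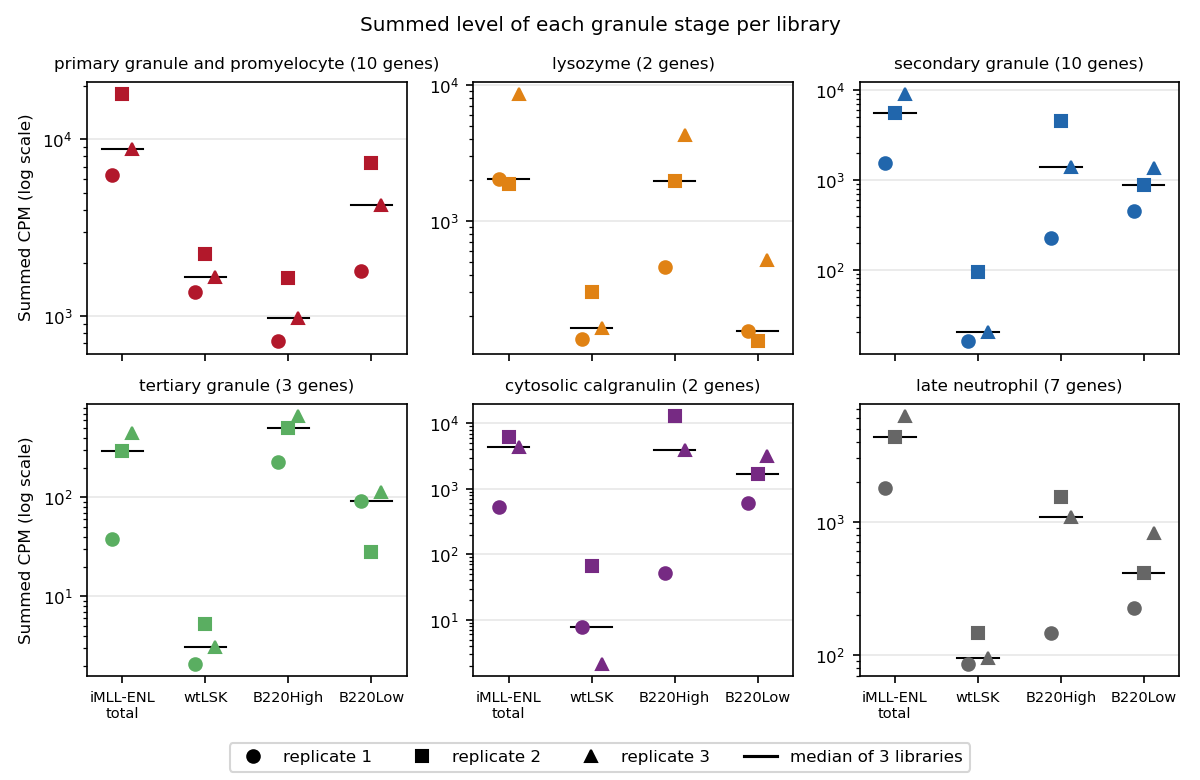
Summed CPM of the genes of each stage in every library (log axis), 1 panel per stage, with groups along the x axis and a point per library. In the secondary panel the 3 wtLSK libraries lie between 15.8 and 94.4 CPM, below all 9 libraries of iMLL-ENL mice, while in the primary panel B220High lies below B220Low.

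The second comparison asked how leukemic cells with high B220 differ from those with low B220. Once same-numbered libraries were paired, the primary stage genes Mpo, Elane, Ctsg and Ms4a3 fell in B220High against B220Low and Anxa1 rose. The fit without pairing called 0 of 33 granule genes and 0% of 12564 genes tested. At an unadjusted p under 0.05, edgeR counted 11 granule genes and 880 genes, and DESeq2 called 302 genes, 2.14% of the 14145 with an adjusted p, 5 of them granule genes. DESeq2 called Adam8, Anxa1, Lyz2 and Mmp8 higher and Ctsg lower. Same-numbered B220High and B220Low libraries deviated together from their group means, so the number was also entered as a block. That paired fit called 4 granule genes lower, where 0.0478% of all genes were called lower (6 genes), and 1 granule gene higher, where 0.581% were called higher (73 genes). Mpo, Elane, Ms4a3 and Ctsg were thus 4 of the 6 genes called lower, beside Asns and Sgip1, which were named after their values were seen.

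Mpo had 15.4, 383 and 59.0 CPM in B220High libraries 1, 2 and 3, against 105, 1756 and 400.1 CPM in B220Low libraries 1, 2 and 3. The groups overlapped, since library 2 was highest in both, but in each number the B220High library was lower. The log2 fold change was -2.53 (SE 0.18, adjusted p = 0.000701) by edgeR with the replicate block and -2.26 (SE 1.39, adjusted p = 0.841) without it. With the block and 1 pair left out it ran from -2.72 to -2.41, while without pairing it was -4.24 without B220High replicate 2 and -0.69 without B220Low replicate 2. Elane had 27.9, 351 and 82.7 CPM in B220High and 444, 2364 and 1389 CPM in B220Low. Every B220High library was below every B220Low library, and the log2 fold change was -3.56 (SE 0.28, adjusted p = 0.00235) by edgeR with the block and -3.14 (SE 1.03, adjusted p = 0.58) without it. Prtn3 had 6.78, 119 and 21.9 CPM in B220High and 146, 498 and 359 CPM in B220Low, likewise without overlap. It did not pass, with a log2 fold change of -3.45 (SE 0.52, adjusted p = 0.0779) by edgeR with the block and -2.72 (SE 1.03, adjusted p = 0.669) without it. Ctsg, with 393, 286 and 245 CPM in B220High and 809, 1648 and 1193 CPM in B220Low, had the smallest unadjusted p of the granule genes in the fit without pairing. Its log2 fold change was -1.91 (SE 0.28, adjusted p = 0.0442) by edgeR with the block and -1.97 (SE 0.32, adjusted p = 0.132) without it. Ms4a3 had 12.5, 213 and 155 CPM in B220High and 96.2, 822 and 734 CPM in B220Low, with overlapping groups and a log2 fold change of -2.32 (SE 0.22, adjusted p = 0.00283) by edgeR with the block and -2.06 (SE 1.13, adjusted p = 0.804) without it.

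Not all primary granule genes shared this direction. The dipeptidyl peptidase gene Ctsc had 153, 164 and 315 CPM in B220High and 133, 61.1 and 99.7 CPM in B220Low, higher in all 3 numbers and without overlap, but did not pass (log2 fold change 1.15, SE 0.29, adjusted p = 0.164 by edgeR with the block). Cst7 had 89.6, 93.6 and 85.9 CPM in B220High and 45.6, 125 and 67.4 CPM in B220Low, with overlapping groups and an adjusted p of 0.683 by edgeR with the block. Fcnb had 0, 21.7 and 1.77 CPM in B220High and 0.589, 17.3 and 1.44 CPM in B220Low. Its 0 counts in B220High library 1 allow a level of up to 0.275 CPM, for counting error only. Prss57 was lower in all 3 numbers and did not pass (log2 fold change -0.96, SE 0.44, adjusted p = 0.426 by edgeR with the block). Bpi had 4.67, 0.0997 and 0 CPM in B220High and 0.0655, 0 and 0 CPM in B220Low, with 51 of the 53 B220High counts in library 1.

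Anxa1 was the granule gene called higher. It had 91.2, 249 and 327 CPM in B220High and 24.8, 26.9 and 62.6 CPM in B220Low. The groups did not overlap, and the log2 fold change was 2.54 (SE 0.28, adjusted p = 0.00534) by edgeR with the block and 2.61 (SE 0.59, adjusted p = 0.309) without it. Adam8 had 223, 354 and 611 CPM in B220High and 84.3, 24.4 and 103 CPM in B220Low, without overlap, and did not pass, with a log2 fold change of 2.65 (SE 0.50, adjusted p = 0.138) by edgeR with the block and 2.58 (SE 0.59, adjusted p = 0.309) without it. Mmp8 had 117, 325 and 522 CPM in B220High and 48.5, 10.9 and 60.5 CPM in B220Low, also without overlap and short of the threshold, with a log2 fold change of 3.12 (SE 0.84, adjusted p = 0.301) by edgeR with the block and 3.11 (SE 0.76, adjusted p = 0.377) without it. Lyz2 had 454, 1965 and 4264 CPM in B220High and 156, 129.8 and 512 CPM in B220Low, with 1 B220High library below the highest B220Low library. It did not pass either, with a log2 fold change of 2.90 (SE 0.54, adjusted p = 0.181) by edgeR with the block and 3.15 (SE 0.93, adjusted p = 0.48) without it. Without B220High replicate 1, the fit without pairing called Anxa1, Mmp8 and Mmp9 higher (adjusted p = 0.0344, 0.0478 and 0.0363 by edgeR) and 96 genes in all.

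None of the paired calls held without number 3. Without both libraries of that number the paired fit called 10 genes and no granule gene, with 10 granule genes at an unadjusted p under 0.05. Mpo, Elane, Ms4a3, Anxa1 and Ctsg then had adjusted p of 0.0607, 0.0828, 0.135, 0.219 and 0.465 by edgeR. Without number 1 it called 292 of 12654 genes, 270 higher and 22 lower, with 5 granule genes higher and 4 lower. Without number 2 it called 197 of 12853 genes, 166 higher and 31 lower, with 2 granule genes higher and 6 lower.

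**Figure D4:**
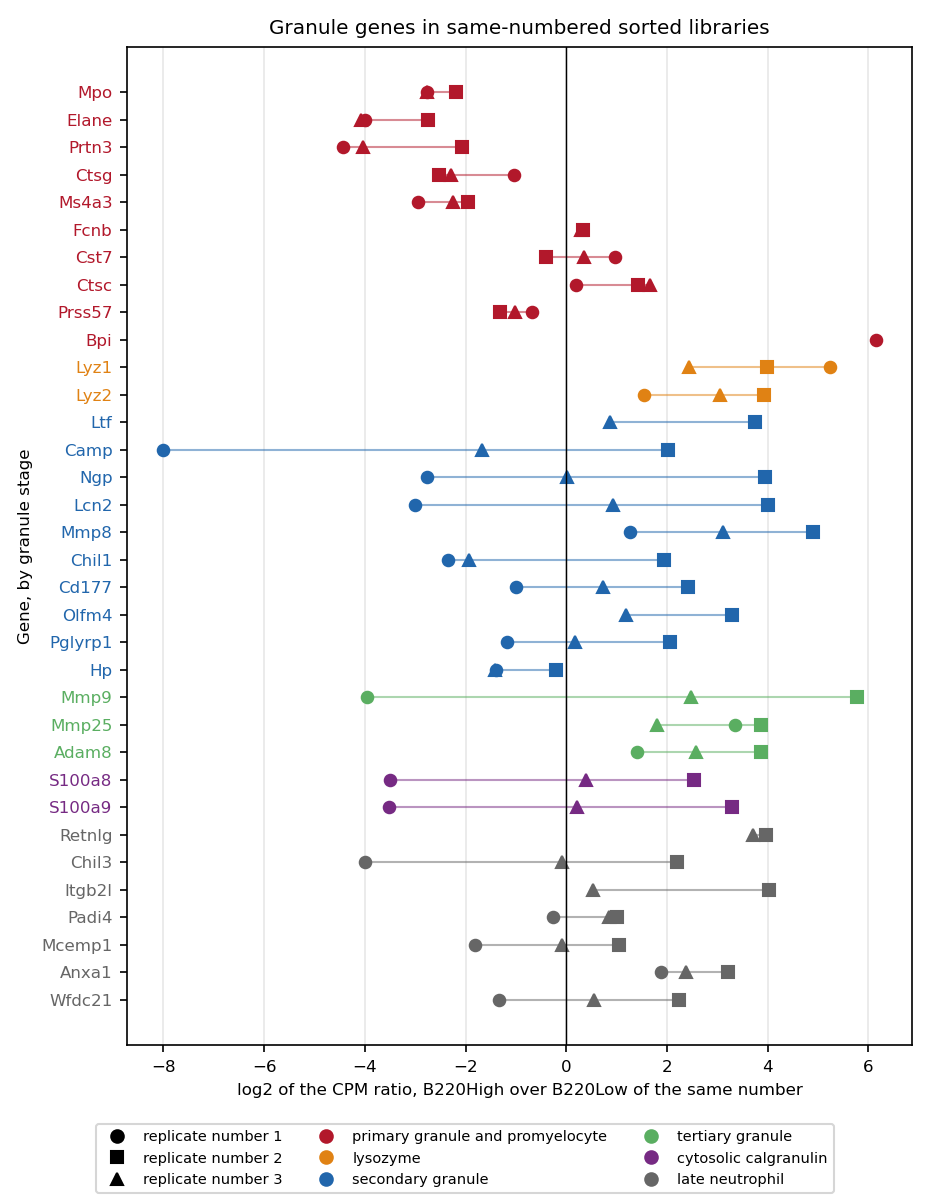
Log2 ratio of CPM, B220High over B220Low, for each granule gene within replicate numbers 1, 2 and 3, grouped by stage, without pairs in which a library had 0 counts. Mpo, Elane, Prtn3, Ctsg and Ms4a3 lie below 0 in all 3 numbers, whereas most secondary and late genes lie below 0 in number 1 and above 0 in number 2.

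Across the 34 genes, 7 were lower in B220High in all 3 numbers and 7 were higher, where 20.9% and 16.1% of all genes tested were. The lower ones were Mpo, Elane, Prtn3, Ctsg, Ms4a3, Prss57 and Hp. The higher ones were Ctsc, Lyz1, Lyz2, Mmp8, Mmp25, Adam8 and Anxa1. Between groups without regard to number, 3 genes (Elane, Prtn3 and Ctsg) had every B220High library below every B220Low library, against 7.22% of all genes. By the same measure 6 genes (Adam8, Anxa1, Ctsc, Lyz1, Mmp25 and Mmp8) had every B220High library above, against 6.2% of all genes. The log2 ratios of B220High over B220Low were -3.99, -2.75 and -4.07 for Elane and -2.77, -2.20 and -2.76 for Mpo in numbers 1, 2 and 3. They were 1.88, 3.21 and 2.38 for Anxa1 and 1.40, 3.86 and 2.57 for Adam8.

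Most secondary granule genes, calgranulins and late genes had no common direction over the numbers. The median log2 ratio of the secondary genes was -1.87 in number 1, 2.85 in number 2 and 0.45 in number 3. Camp had 0.0916, 463 and 44.4 CPM in B220High and 23.6, 114 and 142 CPM in B220Low. Library 1 was lowest and library 2 highest in B220High, and the highest B220Low library was number 3. S100a9 had 31.5, 7656 and 1674 CPM in B220High and 363, 787 and 1436 CPM in B220Low. Its log2 ratios were -3.53, 3.28 and 0.22 in numbers 1, 2 and 3, and its log2 fold change was 0.16 (SE 2.25, adjusted p = 0.984) by edgeR with the block. Lcn2 had 9.98, 1369 and 369.8 CPM in B220High and 80.3, 85.8 and 194 CPM in B220Low. Ngp had 7.78, 1337 and 114 CPM in B220High and 53.0, 86.7 and 113 CPM in B220Low. In these genes B220High library 2 was the highest of its group and library 1 the lowest, and the groups overlapped. Hp differed from them, with 68.3, 409 and 283 CPM in B220High and 179, 472 and 758 CPM in B220Low, lower in all 3 numbers and not passing the test (log2 fold change -0.96, SE 0.25, adjusted p = 0.166 by edgeR with the block).

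B220High library 1 was the lowest of its group for 29 of the 34 genes, and Ltf, Olfm4, Retnlg, Itgb2l and Fcnb had 0 counts there. It was also the shallowest library, with 10921521 counts. Ltf had 0, 20.9 and 15.7 CPM in B220High and 4.91, 1.56 and 8.54 CPM in B220Low, and Olfm4 had 0, 218 and 5.92 CPM in B220High and 0.917, 22.4 and 2.59 CPM in B220Low. Mmp9 had 0.458, 126 and 46.8 CPM in B220High and 7.07, 2.31 and 8.42 CPM in B220Low, again lowest in B220High library 1. Retnlg had 0, 4.63 and 11.8 CPM in B220High and 2.62, 0.298 and 0.902 CPM in B220Low. In none of these genes did the groups separate. Among the late genes Chil3 had 6.78, 773 and 427 CPM in B220High and 108, 169 and 456 CPM in B220Low, Mcemp1 had 11.1, 347 and 229 CPM in B220High and 38.7, 169 and 244 CPM in B220Low, and Wfdc21 had 1.19, 82.2 and 55.0 CPM in B220High and 3.01, 17.4 and 37.5 CPM in B220Low. Padi4 had 36.5, 65.0 and 39.3 CPM in B220High and 43.7, 32.1 and 21.95 CPM in B220Low. Again the groups overlapped. The 34 genes took 0.183%, 2.31% and 1.24% of the counts of B220High libraries 1, 2 and 3, and 0.333%, 1.05% and 1.03% of those of B220Low. The secondary sum was 0.316, 2.75 and 1.45 times the primary sum in B220High and 0.247, 0.120 and 0.321 times in B220Low, so the ratio was higher in B220High in each number. In number 1 this leaned on Mmp8, which held 51.6% of the secondary sum of B220High library 1. Of the secondary genes with counts in both libraries of number 1, 7 were lower in B220High and 1 was higher.

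Marker levels of other cells also differed between the sorted libraries, although no marker of any list was called without the block. The list of 9 eosinophil, basophil and mast cell markers summed to 1011, 71.4 and 997 CPM in B220High and 21.1, 26.7 and 58.3 CPM in B220Low. Of its 5 genes tested, Prg2, Epx and Cpa3 were called higher in the paired fit, where 0.581% of all genes tested were, and had adjusted p of 0.363 to 0.412 by edgeR without the block. Ms4a2 and Mcpt8 were not called. With the block their log2 fold changes were 1.17 (adjusted p = 0.575) and -0.75 (adjusted p = 0.789) by edgeR, so Mcpt8 went the other way. In this list Mcpt1 was at 0 in every library and Prss34 at 0 in the 6 sorted libraries. Cpa3, carboxypeptidase A of mast cells and early progenitors, had 819, 52.5 and 876 CPM in B220High and 2.88, 0 and 11.4 CPM in B220Low. It made up most of the list sum in each B220High library. Monocyte and macrophage markers summed to 627, 1391 and 1754 CPM in B220High and 511, 622 and 665 CPM in B220Low, with Adgre1 and Mpeg1 of 9 tested called higher in the paired fit. Ly6c2 of that list went the other way without a call, with a log2 fold change of -1.02 (adjusted p = 0.158) by edgeR with the block. T lineage markers summed to 3.48, 35.7 and 1.87 CPM in B220High and 5.30, 10.9 and 1.44 CPM in B220Low, highest in B220High library 2 as B lineage markers were, and none of 3 tested was called. The 8 LSK and stem cell markers summed to 199, 365 and 313 CPM in B220High and 104, 93.6 and 93.6 CPM in B220Low, so that the groups did not overlap. None of 6 tested was called with or without the block, though Ly6a, Procr and Hlf had every B220High library above every B220Low library, with log2 fold changes of 5.79, 4.02 and 3.62 by edgeR without the block. The part of these cells in the granule gene results was not tested.

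Levels of different genes were compared per kilobase of the deposited gene width. In iMLL-ENL total the order was led by S100a9 with a mean of 5108 (range 734 to 8097) CPM per kb, Lyz2 with 3930.1 (range 1767 to 8114), Elane with 2709 (range 1079 to 5203), S100a8 with 2535 (range 343 to 4872) and Mpo with 2371 (range 1446 to 3854). Their ranges overlapped, so no order among these neighbours held beyond the spread of the libraries. In B220High the order was led by S100a8 with 6456 (range 54.0 to 13473) CPM per kb, S100a9 with 5955 (range 60.1 to 14610.4) and Lyz2 with 2107 (range 429 to 4034), and in B220Low by S100a8 with 2471 (range 614 to 4474), S100a9 with 1645 (range 693 to 2740.1), Elane with 1521 (range 482 to 2569) and Ctsg with 1214 (range 807 to 1644). In wtLSK Mpo led with 565 (range 455 to 704) CPM per kb, followed by Lyz2 with 189 (range 127 to 286) and Ctsg with 80.2 (range 49.6 to 117), and the Mpo range did not overlap that of Lyz2. Between the deposited tables levels were set side by side without a test. For 6 of the 33 genes tested in both comparisons (Mpo, Fcnb, Prss57, Ltf, Cd177 and Chil3) all 6 sorted libraries were below all 3 iMLL-ENL total libraries, where 8.67% of the 12240 genes tested in both were, and none had all of them above, where 11.9% were.

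Other genes of granule biology were taken from lists by function. Among 15 tested genes for other granule content or membrane, 13 rose in iMLL-ENL total against wtLSK and none fell, where 15.5% of all genes tested rose and 15.1% fell. The 3 with the smallest p were Stom, a membrane scaffold protein, with a log2 fold change of 3.45 (SE 0.23, adjusted p = 4.83e-05) by edgeR, Itgam, the alpha chain of the Mac-1 integrin, with 3.32 (SE 0.23, adjusted p = 5.43e-05), and Itgb2, its beta chain, with 3.95 (SE 0.38, adjusted p = 0.000204). Of the granule exocytosis genes 2 of 7 rose, set against the same 15.5%. They were Rab27a, the small GTPase that docks granules, at 1.44 (SE 0.36, adjusted p = 0.018) and Stxbp2, a partner of the fusion machinery, at 0.60 (SE 0.19, adjusted p = 0.046) by edgeR. Of 8 surface genes of mature neutrophils, 4 rose and none fell, with the Fc receptor gene Fcgr3 at 5.98 (SE 0.77, adjusted p = 0.000989) by edgeR. In B220High against B220Low none of these 3 lists had a gene called without the block. With the block 1 of 30 tested rose, Slpi, an inhibitor of elastase, with 662, 754 and 2881 CPM in B220High and 361, 407 and 1564 CPM in B220Low. In that fit 0.581% of all genes tested rose.

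Of 10 transcription factors of granule genes, 7 rose and 1 fell in iMLL-ENL total, where 15.5% of all genes tested rose and 15.1% fell. The factor that fell was Runx1, with a log2 fold change of -0.94 (SE 0.24, adjusted p = 0.019) by edgeR and groups that did not overlap. Cebpe, the factor needed for secondary granules, had 21.0, 25.2 and 33.1 CPM in the iMLL-ENL total libraries and 0.0537, 2.63 and 0.459 CPM in wtLSK, a log2 fold change of 4.85 (SE 0.95, adjusted p = 0.00643) by edgeR. Gfi1, a repressor active in neutrophil commitment, had 249, 264 and 98.3 CPM in the iMLL-ENL total libraries and 25.7, 32.6 and 21.3 CPM in wtLSK (log2 fold change 3.09, SE 0.37, adjusted p = 0.000619 by edgeR). Spi1, which encodes PU.1, had 140.5, 137 and 164 CPM in the iMLL-ENL total libraries and 34.3, 53.8 and 35.4 CPM in wtLSK (adjusted p = 0.000433 by edgeR). Cebpa, needed for early granulocyte progenitors, had 46.7, 20.4 and 34.3 CPM in the iMLL-ENL total libraries and 14.2, 21.2 and 19.0 CPM in wtLSK, with overlapping groups and a log2 fold change of 1.05 (SE 0.33, adjusted p = 0.0422) by edgeR. Between the sorted groups none of the 10 was called with or without the block. Cebpe had 27.4, 26.9 and 11.6 CPM in B220High and 11.8, 11.1 and 11.4 CPM in B220Low (log2 fold change 0.96, SE 0.48, adjusted p = 0.766 by edgeR without the block), and Gfi1 had 182, 144 and 72.7 CPM in B220High and 153, 220.2 and 124 CPM in B220Low (log2 fold change -0.30, SE 0.34, adjusted p = 0.929 by edgeR without the block).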

How the data were processed

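RNA was sequenced in 12 bone marrow libraries in 4 groups of 3, with unstranded NuGen Ovation libraries from PicoPure RNA, per the labels' protocols. The authors deposited raw counts of reads per NCBI gene ID in 2 tables, 1 for iMLL-ENL total and wtLSK and 1 for B220High and B220Low, and a gene width in bases beside them, which is not a measurement. Named in the submitters' processing notes are GRCm38, mm10 and edgeR. Which aligner and counter were used is not given in the sources used here. The deposited CPM tables were not used. Symbols, coordinates and promoter sequences came from RefSeq tables of GRCm38.p6, which matched 23968 of 24028 IDs and the promoters of 30 of the 34 genes.

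Levels are CPM of the library total. Each comparison was fitted within 1 table with edgeR 4.0.16 (R 4.3.3): TMM factors, filterByExpr with a minimum count of 10, quasi-likelihood F test with robust dispersions, two-sided, Benjamini-Hochberg adjustment over all genes tested, calls at an adjusted p under 0.05. Standard errors are the absolute log2 fold change over the square root of F. The fit was tested on simulated data. Ratios for genes with 1 count in a group carry exact 95% counting intervals, which cover counting error only. The members and gene lists were chosen with earlier results of these data known. All 34 genes are named, with 4 transcription factors and up to 3 called members per list by smallest p. Slpi, Cpa3, Runx1 and other list genes outside this rule were named after their values were seen.

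Alternatives were DESeq2 1.42.0, other scaling, no filter, all 12 libraries in 1 fit, leaving out each library and a block for the replicate number. Same-numbered B220High and B220Low libraries deviated from their group means with correlations of 0.397, 0.198 and 0.307, all above 0.1, so block values stand beside those results. What a number marks is not in the labels.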

Additional observations from a re-analysis of the deposited data

How the results depend on the processing

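For iMLL-ENL total against wtLSK, no alternative called a granule gene lower, and 25 to 32 were higher: 32 by DESeq2 (14.7% of all genes), 25 with no filter (10.1%), 30 with the replicate block (14.4%), 29 with all 12 libraries in 1 fit (9.34%) and 28 to 32 with 1 library left out (8.3% to 15.8%). Genes called over the table numbered 2411 with all 12 libraries in 1 fit and 2636 to 4528 with 1 library left out. Mpo (adjusted p = 0.237 by edgeR) and Fcnb lost their calls with all 12 libraries in 1 fit. Ltf lost its call with the block (adjusted p = 0.178 by edgeR), as did Rab27a, Stxbp2 and Cebpa (0.0528, 0.0502 and 0.077). Same-numbered libraries of these groups had correlations of 0.016, 0.16 and -0.036, not all above 0.1, so the block is given here only. Of the 31 called genes, 14 changed in fold by over 1.5 times without wtLSK replicate 2, 12 without iMLL-ENL total replicate 3, 5 without iMLL-ENL total replicate 2, 3 without wtLSK replicate 3, 1 without wtLSK replicate 1 and 0 without iMLL-ENL total replicate 1. Padi4 ran from -0.26 to 0.46 with 1 library left out. For B220High against B220Low, DESeq2 called 4 granule genes higher, 1 lower and 302 genes, the fit with no filter called 1 lower and 22 genes, the fit with the replicate block called 1 higher, 4 lower and 79 genes and changed no other granule call, and the fit of all 12 libraries called 31 genes. With 1 library or 1 pair left out, 0 to 5 granule genes were higher, 0 to 6 lower and 0 to 292 genes called. With the block the log2 fold changes of Fcnb (-0.44), Camp (-1.30), Chil1 (-0.78), Chil3 (-0.33) and Mcemp1 (-0.18) turned negative. Over the fits with 1 library or pair left out the log2 fold change ran -3.34 to 1.48 for Camp, -0.078 to 2.20 for Cd177, -2.07 to 1.39 for Chil1, -1.87 to 1.70 for Chil3, -0.11 to 0.71 for Cst7, -2.68 to 2.99 for Fcnb, -2.26 to 3.01 for Itgb2l, -0.90 to 2.98 for Lcn2, -1.93 to 2.33 for Ltf, -0.86 to 1.05 for Mcemp1, -0.31 to 4.10 for Mmp9, -1.27 to 3.16 for Ngp, -1.39 to 5.45 for Olfm4, -0.63 to 1.65 for Pglyrp1, -0.47 to 3.87 for Retnlg, -1.47 to 2.27 for S100a8, -1.57 to 2.58 for S100a9 and -0.22 to 2.31 for Wfdc21. It ran -4.24 to -0.69 for Mpo, -4.58 to -2.53 for Elane, -2.34 to -1.62 for Ctsg, -2.60 to -1.53 for Ms4a3 and 2.18 to 3.26 for Anxa1, and with the block no pair left out moved these 5 by over 1.5 times. The cause of these changes was not tested. The pair fits were chosen after seeing the data. Low counts limit Bpi and Olfm4 in wtLSK and the genes at 0 in B220High library 1.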
